A study of Mus musculus with 2 samples.

Results

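TET2 occupancy at a distance of 1 to 3 kb from a transcription start site (TSS) was examined in differentiated primary adipocytes. Adipose-derived stem cells (ASCs), the precursor cells of fat tissue, were isolated from mouse inguinal white adipose tissue and turned into adipocytes in culture with IBMX, dexamethasone and insulin. Chromatin from these cells gave 1 library from a TET2 immunoprecipitation (ChIP) and 1 Input library of unprecipitated chromatin, and the authors called peaks in the ChIP library. Both libraries share this origin and treatment, and the labels name no strain, genotype or age. The peak list held 14103 peaks, of which 13828 lay on the 19 autosomes of the GRCm38 mouse genome. A peak was kept here when its midpoint lay more than 1000 bp and at most 3000 bp from the nearest TSS of any transcript in the GENCODE M21 annotation. This rule kept 1199 of the 13828 autosomal peaks, or 8.67% (exact 95% binomial interval 8.21% to 9.15%), with 454 upstream and 745 downstream of their TSS. A further 5742 peaks lay within 1 kb of a TSS and 6887 lay over 3 kb away. With 1 ChIP library there is no replicate, so no p-value was computed between sets of peaks, and every interval covers counting error only. The strength of a peak is given as the −log10 p that the peak caller MACS2 assigned to it. The list gives no read totals, so the depth behind a peak is unknown. In a culture of many cells, fewer cells with TET2 at a site and less TET2 per cell cannot be told apart.

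TET2 is a dioxygenase that oxidizes 5-methylcytosine to 5-hydroxymethylcytosine and further products, a step on the way to unmethylated DNA. Most CpG dinucleotides in mammalian DNA are methylated, apart from those in CpG islands, which are GC-rich stretches that keep their CpGs and often surround a TSS. The flank of an island is called its shore, a place where methylation is known to differ between cell types. Unlike TET1 and TET3, TET2 lacks a CXXC domain, the zinc finger that binds unmethylated CpG, and it is brought to DNA by partner proteins. Adipocytes have well-known partners for such a role, among them C/EBPα, a transcription factor of fat cell differentiation.

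The sequences of 5 peaks show the range of sequence found at this distance. The Hoxc10 and Dnmt3a peaks have the largest −log10 p, on the upstream and the downstream side, of the peaks in the gene lists described later that overlap no annotated untranslated region. The Hoxc5 peak had a larger value and is not shown because it overlaps one. Those at Eif4enif1 upstream and at Aida and Pisd-ps1 downstream are among those with the largest −log10 p with the same limits and under 50% repeat-masked bases. For each, 300 bases around the peak midpoint are given from the GRCm38 RefSeq assembly, all on the plus strand, which is the strand of each of these genes. Every CG is in capitals. The stretches are chr15:102963746-102964045 for Hoxc10, chr12:3808116-3808415 for Dnmt3a, chr11:3127196-3127495 for Pisd-ps1, chr1:183299112-183299411 for Aida and chr11:3199659-3199958 for Eif4enif1.
Hoxc10: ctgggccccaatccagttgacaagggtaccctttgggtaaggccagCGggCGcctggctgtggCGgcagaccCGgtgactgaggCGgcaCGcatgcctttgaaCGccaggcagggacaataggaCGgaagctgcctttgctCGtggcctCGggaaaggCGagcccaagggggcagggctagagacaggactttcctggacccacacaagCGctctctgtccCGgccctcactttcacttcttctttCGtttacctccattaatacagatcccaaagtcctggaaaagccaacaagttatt
Dnmt3a: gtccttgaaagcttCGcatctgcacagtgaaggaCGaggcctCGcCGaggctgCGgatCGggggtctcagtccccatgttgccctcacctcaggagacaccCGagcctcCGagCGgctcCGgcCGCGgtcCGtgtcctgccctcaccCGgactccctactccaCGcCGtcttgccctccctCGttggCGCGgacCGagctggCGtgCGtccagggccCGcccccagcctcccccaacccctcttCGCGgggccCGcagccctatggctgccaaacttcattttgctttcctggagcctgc
Pisd-ps1: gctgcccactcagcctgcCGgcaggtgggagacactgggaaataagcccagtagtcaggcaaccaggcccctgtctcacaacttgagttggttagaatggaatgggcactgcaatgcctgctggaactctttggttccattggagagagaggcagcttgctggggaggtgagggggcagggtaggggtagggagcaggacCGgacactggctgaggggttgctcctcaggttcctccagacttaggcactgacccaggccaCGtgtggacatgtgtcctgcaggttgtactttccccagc
Aida: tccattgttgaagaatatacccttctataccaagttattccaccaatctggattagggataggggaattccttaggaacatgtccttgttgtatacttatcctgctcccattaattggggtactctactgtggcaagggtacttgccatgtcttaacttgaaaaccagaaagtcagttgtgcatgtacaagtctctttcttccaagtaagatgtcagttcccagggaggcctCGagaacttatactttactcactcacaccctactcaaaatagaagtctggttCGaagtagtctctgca
Eif4enif1: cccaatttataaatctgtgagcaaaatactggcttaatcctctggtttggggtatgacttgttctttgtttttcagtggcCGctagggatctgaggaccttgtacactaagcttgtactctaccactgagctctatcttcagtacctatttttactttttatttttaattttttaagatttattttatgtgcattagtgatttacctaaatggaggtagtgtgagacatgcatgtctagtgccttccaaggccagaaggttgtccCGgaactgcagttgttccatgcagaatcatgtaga

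The Dnmt3a stretch held 26 CpGs at a GC content of 68.3%, and the Hoxc10 stretch held 14 at 58.3%. Both lay in a CpG island. Pisd-ps1 had 3 CpGs at a GC content of 59.3%, similar to that of Hoxc10. The Aida and Eif4enif1 stretches held 2 CpGs each, at 42.0% and 39.0% GC.

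Peaks were more frequent downstream than upstream of the TSS. Of the 1199 peaks, 62.1% (59.3% to 64.9%) lay downstream and 37.9% (35.1% to 40.7%) upstream, although upstream sequence made up 48.7% of the 233109821 bases at this distance. Per Mb of such sequence there were 6.23 peaks downstream (5.79 to 6.70, an exact Poisson interval at 95%) and 3.996 upstream (3.64 to 4.38). The whole distance range gave 5.14 per Mb (4.86 to 5.44), against 3.42 per Mb (3.34 to 3.50) over 3 kb from any TSS and 5.77 per Mb over all autosomes. So these peaks were denser than those farther out, yet together they took a smaller share of the peaks (8.67%) than their 9.73% share of autosomal sequence.

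The excess on the downstream side lay mainly in its nearer kilobase. Downstream density was 7.41 per Mb (6.75 to 8.11) at 1 to 2 kb and 4.91 per Mb (4.35 to 5.53) at 2 to 3 kb. Upstream density was 4.27 per Mb (3.76 to 4.82) and 3.69 per Mb (3.19 to 4.24) over the same distances, and these 2 upstream intervals overlapped. At 2 to 3 kb too, the downstream interval lay above the upstream one. In 200 bp steps, downstream density went from 8.84 per Mb at 1.0 to 1.2 kb to 4.37 per Mb at 2.8 to 3.0 kb, where the upstream side had 4.435 per Mb. Neither limit of the rule marked a break. The last 100 bp inside 1 kb held 104 peaks and the next 100 bp held 100, while 42 peaks lay in the last 100 bp before 3 kb and 47 in the 100 bp after it.

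**Figure D1:**
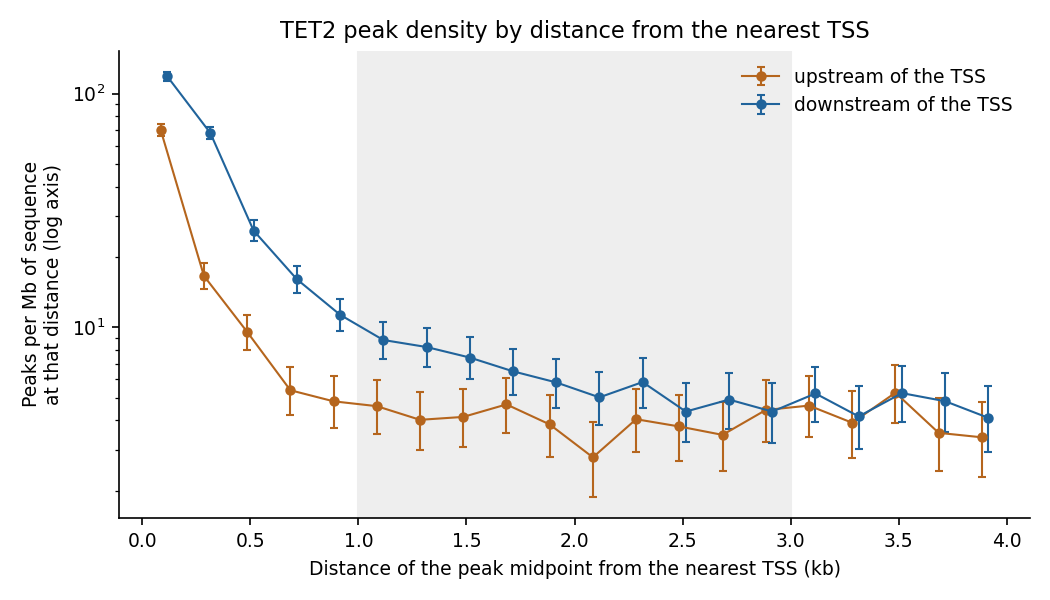
TET2 peaks per Mb of autosomal sequence (log axis) in 200 bp steps of distance between the peak midpoint and the nearest TSS, upstream and downstream, with exact 95% Poisson intervals for counting error; grey marks 1 to 3 kb. The downstream points lie above the upstream ones at 1.0 to 1.2 kb (8.84 and 4.61 per Mb) and meet them at 2.8 to 3.0 kb (4.37 and 4.435 per Mb).

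The composition of the DNA separated these peaks from the sequence around them far more than their side did. Median GC content of the peaks was 59.2% (quartiles 52.2% and 62.6%), against 43.4% over all bases at the same distance. Counted over the 201 bases at the midpoint, density was 1.23 peaks per Mb (1.04 to 1.45) in windows under 45% GC and 2.103 per Mb (1.79 to 2.45) at 45% to 55%. It reached 45.9 per Mb (42.3 to 49.8) at 55% to 65% and 487 per Mb (434 to 546) at 65% and over. Windows of at least 65% GC were 0.292% of the sequence at this distance and held 24.9% of the peaks. At the other end, windows under 45% GC were 57% of the sequence and held 12.3% of the peaks.

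Within a class of GC content the 2 sides were closer together. At 55% to 65% GC, density was 51.2 per Mb (46.1 to 56.6) downstream and 38.9 per Mb (33.9 to 44.5) upstream, and these intervals did not overlap. In windows of 65% GC and over, the downstream value of 513 per Mb (444 to 589) and the upstream value of 443 per Mb (360 to 539) overlapped. The intervals of the 2 sides also overlapped under 45% GC and at 45% to 55% GC. GC content also affects how well DNA is amplified and sequenced, and no signal of the Input library was used here, so the part of GC content in peak detection was not tested.

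**Figure D2:**
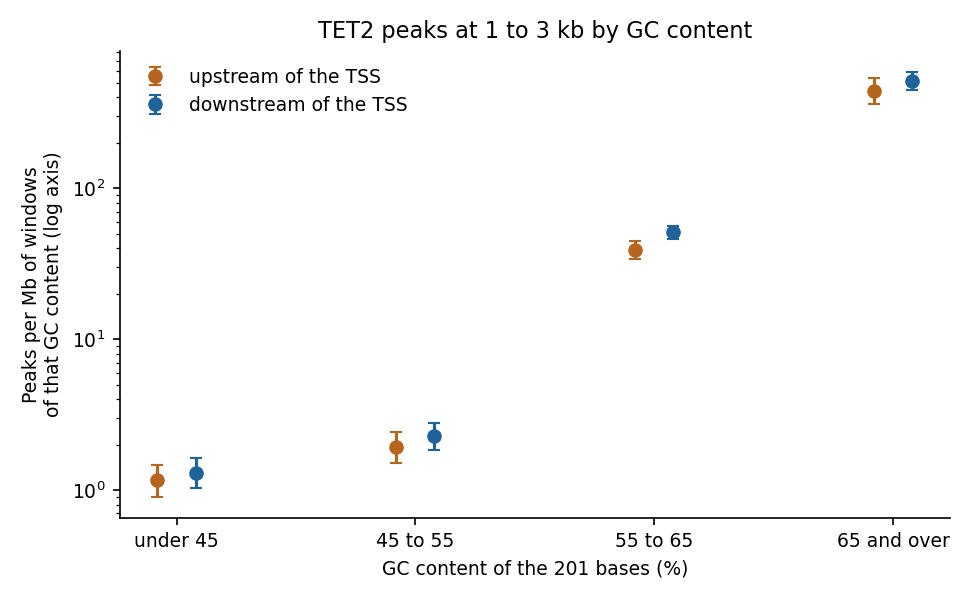
TET2 peaks at 1 to 3 kb from a TSS per Mb of windows (log axis) in 4 classes of GC content of the 201 bases at the midpoint, for each side of the TSS, with exact 95% Poisson intervals. Density on the downstream side went from 1.30 per Mb under 45% GC to 513 per Mb at 65% and over, and on the upstream side from 1.16 to 443 per Mb.

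CpG islands were called on the reference sequence as stretches of at least 200 bases with at least 50% GC and an observed over expected CpG ratio of at least 0.6. Of the 1199 peaks, 377 (31.4%, 28.8% to 34.2%) had their midpoint in an island, against 1.27% of the bases at this distance. Within 1 kb of a TSS the share was 80.4%, higher by 48.9 percentage points (95% Newcombe interval 46.05 to 51.7), and over 3 kb it was 17.99%, lower by 13.5 points (10.7 to 16.3). Upstream and downstream peaks did not differ detectably in this share, with 29.96% and 32.4% and a difference of 2.39 points (−3.06 to 7.69). The median CpG ratio fell between the classes in the same order, from 0.776 within 1 kb to 0.413 at 1 to 3 kb and 0.329 over 3 kb.

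Island shores, defined here as the 2 kb on either side of an island, held 218 peaks (18.2%, 16.0% to 20.5%). Shores made up 22.6% of the bases at 1 to 3 kb, so the peaks were no denser there than over all this sequence, islands included. Islands held many peaks on few bases, which lowers the shore share. Shores were not compared with the other sequence outside islands. The remaining 604 peaks (50.4%) lay over 2 kb from any island. At equal GC content, islands still held more peaks than other sequence in the class of 55% to 65% GC, with 200.1 per Mb (171 to 232) in islands and 34.8 per Mb (31.5 to 38.3) outside them. At 65% GC and over, the values of 520 per Mb (446 to 602) in islands and 448 per Mb (372 to 534) outside overlapped.

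**Figure D3:**
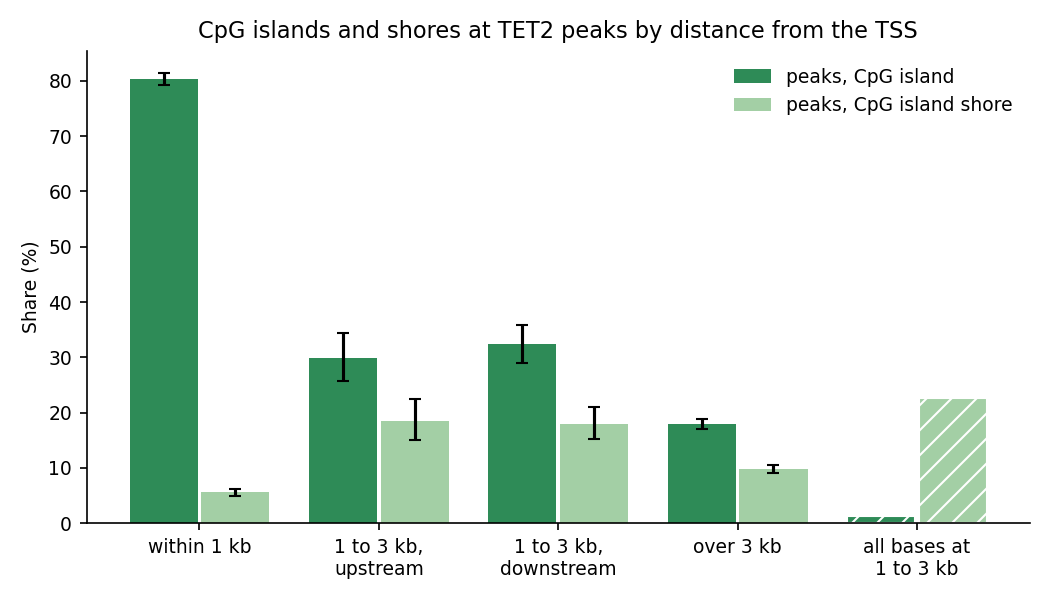
Share of TET2 peak midpoints in CpG islands (dark green) and in island shores (light green) by distance from the nearest TSS, with exact 95% binomial intervals, and the same shares of all bases at 1 to 3 kb (hatched). Islands held 29.96% of the upstream and 32.4% of the downstream peaks against 1.27% of the bases, and shores held 18.5% and 17.99% against 22.6%.

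Most island peaks were not in the island of the TSS they were measured from. Of the 377 island peaks, 239 had a TSS that was itself outside any island. In the other 138 the TSS was in an island too, and in 61 of those it was the same island as the peak's. Island peaks had a median −log10 p of 6.70 against 6.21 for the 822 peaks outside islands. Islands held 27.0% (19.04% to 36.3%) of the 111 peaks with −log10 p of at least 10. They held 31.9% (29.1% to 34.75%) of the other 1088, and these intervals overlapped. The Dnmt3a, Klf4, Foxc2, Fzd2 and Bmp2 peaks each shared an island with their TSS, and those islands were 1769 to 2441 bp long.

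The TSS nearest to one of these peaks seldom had a peak of its own, while by gene the share was near that of all genes. The same TSS had a second peak with its midpoint within 1 kb for 31 of the 1199 peaks (2.59%, 1.76% to 3.65%). For comparison, 7.86% of the bases at this distance had a nearest TSS with such a peak, as did 13.8% of all 125891 TSS positions. By gene, 184 of the 802 protein-coding genes with a peak at 1 to 3 kb (22.9%) also had a peak within 1 kb of one of their TSSs, against 25.6% of all autosomal protein-coding genes. The median distance to the next peak was 29106 bp, and 49 peaks (4.09%) had another within 3 kb. No background was computed for this spacing. In all, 1193 different TSS positions were involved, 6 of them with 2 peaks each.

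Gene annotation placed many of these peaks in exons. Coding exons held 435 of the 1199 midpoints (36.3%, 33.6% to 39.1%), while 2.84% of the bases at 1 to 3 kb were coding exon. The share was 43.2% (39.6% to 46.9%) downstream and 24.9% (20.98% to 29.1%) upstream, a difference of 18.3 percentage points (12.9 to 23.5), against 3.76% and 1.87% of the bases. Over 3 kb from a TSS, 12.5% of peaks were in coding exons, lower by 23.8 points (20.99 to 26.6). 3′ untranslated regions held 6.92% of the peaks and 3.02% of the bases. Introns held 34.1% of the peaks and 54.97% of the bases, and sequence outside genes held 17.2% and 33.6%. Of the downstream peaks, 21.2% (18.3% to 24.3%) were in the first intron of a transcript that starts at the nearest TSS.

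The share in coding exons stayed above that of the sequence when GC content was held in a class. At 55% to 65% GC, 45.8% (41.7% to 49.9%) of the peaks and 15.9% of the windows had their midpoint in a coding exon. At 65% GC and over the values were 50.2% (44.4% to 56.0%) and 37.55%. At 45% to 55% GC they were 6.79% (3.44% to 11.8%) and 2.96%. Under 45% GC, 2.70% (0.741% to 6.78%) of the peaks and 1.16% of the windows were in coding exons, and this interval holds the value of the windows.

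**Figure D4:**
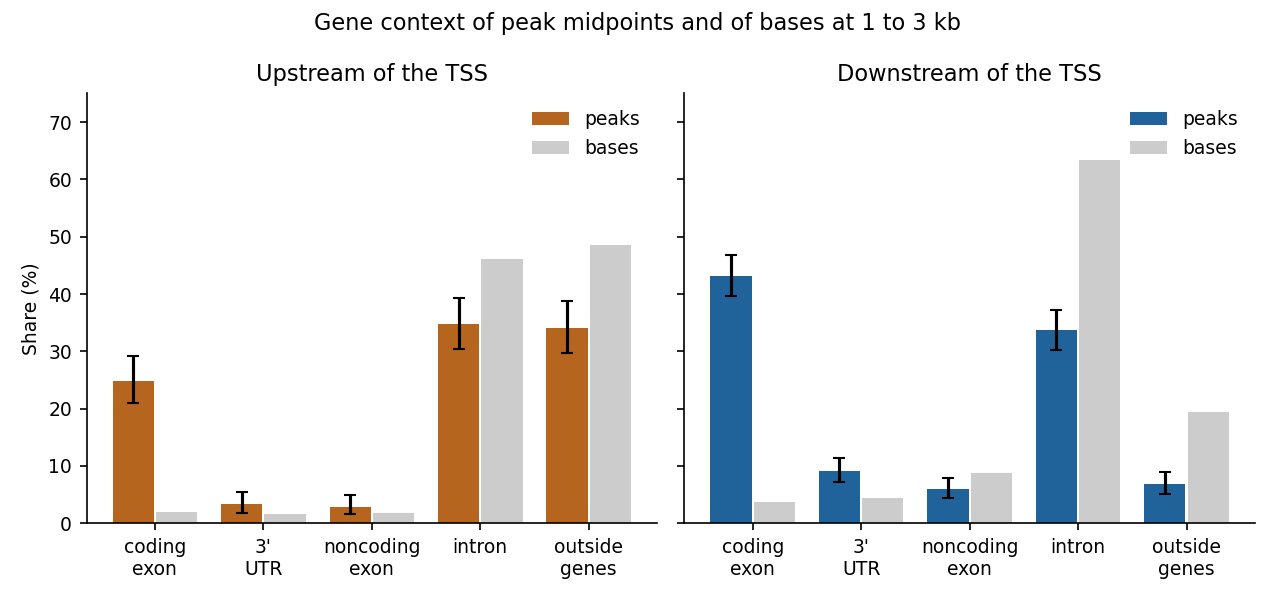
Gene context of the midpoints of TET2 peaks at 1 to 3 kb from a TSS (coloured, exact 95% binomial intervals) and of all bases at that distance (grey), upstream and downstream. Coding exons held 24.9% of upstream and 43.2% of downstream peaks against 1.87% and 3.76% of the bases, while introns held 34.8% and 33.7% against 46.2% and 63.3%.

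Repeats were less common at these peaks than farther out. A midpoint distance of 1 to 3 kb gave 201 peaks (16.8%) with at least 50% repeat-masked bases, against 46.8% over 3 kb, a difference of −30.1 percentage points (−32.4 to −27.55), and 1.86% within 1 kb. Upstream peaks were of this kind more often (22.9%) than downstream peaks (13.0%), a downstream minus upstream difference of −9.89 points (−14.5 to −5.42). The 2 largest −log10 p values of all 1199 peaks, 311.9 at the lincRNA gene Gm33838 (chr9:35304998-35305844) and 104.9 at Gm11168 (chr9:3006519-3007147), belonged to peaks with 60.3% and 95.9% repeat-masked bases. Reads from repeated sequence can be placed at the wrong copy, so the position of these 2 signals is uncertain.

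Peaks were short. Median length was 421 bp (range 375 to 1459 bp), and the median −log10 p was 6.26 (quartiles 5.14 and 7.92), near the median of 6.21 for all autosomal peaks. Values under 5 were present in 181 of the 1199 peaks (15.1%), among them those of Fasn, Hoxc13, Klf4 and Smad6. Such peaks are weaker than the p setting named in the methods. Values of at least 10 were reached by 111 of the 1199 peaks (9.26%), more often than over 3 kb (6.55%, a difference of 2.71 percentage points, 1.08 to 4.57). Downstream and upstream peaks reached it in 10.3% and 7.49% of cases, with a difference of 2.85 points (−0.5815 to 6.02) that counting error covers. Coding exons held 43.2% (33.9% to 53.0%) of the 111 peaks and 35.6% (32.7% to 38.5%) of the 1088 weaker ones, and 3′ untranslated regions held 12.6% (7.07% to 20.3%) and 6.34% (4.97% to 7.96%). In both cases the intervals overlapped. Peaks with all bases in exons went the other way, with 21.6% (14.4% to 30.4%) of the 111 and 30.5% (27.8% to 33.35%) of the 1088. These intervals overlapped too.

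Of the peaks with under 50% repeat-masked bases, 5 of the strongest on the downstream side had −log10 p values of 19.2 to 28.65. The Aida peak (28.65, chr1:183298976-183299549) lay in an intron 1692 bp from the TSS, with 42.7% GC. Pisd-ps1 (21.8, chr11:3127046-3127646) is a pseudogene. Its peak had its midpoint at 1340 bp in the first intron, and 42.4% of its bases were in exons. The Umod peak (21.01, chr7:119476702-119477499) was 94.2% exonic at 1113 bp. Umod encodes uromodulin, a protein made by the thick ascending limb of the kidney. At Tmbim6 (19.8, chr15:99408636-99409848), a gene for an endoplasmic reticulum membrane protein, the peak lay wholly in exons, with its midpoint at 1975 bp in the 3′ untranslated region. The Kap peak (19.2, chr6:133851720-133852313) fell at 1657 bp in a coding exon, with 41.8% GC. Kap is the kidney androgen regulated protein. None of these 5 peaks was in a CpG island.

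Because Umod and Kap are known for kidney expression, a list of 39 genes of kidney tubule and other kidney cells was drawn up after these values had been seen, so its counts are a description and no independent evidence. Of the 39 genes, 25 (64.1%) had a peak of any distance with its midpoint in an exon, against 4492 of 20807 autosomal protein-coding genes (21.6%). A peak of this kind with −log10 p of at least 10 was present in 14 of the 39 (35.9%) and in 2.79% of all protein-coding genes. At 1 to 3 kb from a TSS, 5 peaks were in exons of these genes. Besides Umod and Kap they were Slc34a1, which encodes a phosphate carrier of the proximal tubule (−log10 p of 14.96, nearest TSS that of Pfn3), Keg1 (10.7, nearest TSS that of Gm15962) and Slc13a3 (5.78). The cells are labelled as adipocytes, no RNA was measured in this series, and the part of kidney-expressed genes in the result was not tested. Sequence copied from spliced RNA would also fall in exons, and whether the exon peaks here, including the coding exon and 3′ untranslated region shares above, all mark TET2 on chromatin was not tested.

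Among the strongest upstream peaks, 5 had −log10 p values of 12.2 to 18.3. The peak at 2583 bp upstream of Eif4enif1 (18.3, chr11:3199524-3200094) lay in an intron of the neighbouring Drg1 gene. Nagpa (15.4, chr16:5198581-5199119), which encodes a lysosomal enzyme-tagging glycosidase, had its peak 1085 bp upstream of a later start of the same gene. Upstream of the pseudogene Gm12203 (13.2, chr11:51176989-51177566), the peak was in an island of 751 bp. The Esrp1 peak (12.25, chr4:11387712-11388251) was 1198 bp upstream, in the same island of 1998 bp as its TSS. Esrp1 encodes an epithelial splicing regulator. The peak 1045 bp upstream of Cmtm5 (12.2, chr14:54934944-54935488) was in a coding exon of Il25, a cytokine gene.

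A TSS of any transcript was often not the main start of a protein-coding gene. The nearest TSS belonged to a protein-coding gene for 820 peaks (68.4%), to a long noncoding RNA gene for 157 (13.1%), to a pseudogene for 141 (11.8%) and to a small RNA or other gene for 81 (6.76%). The coding share was 74.6% downstream and 58.2% upstream. Among the 820, the TSS was the first start of the gene in 237 (28.9%). Distances given for named genes run from the nearest TSS, which can be a later start. This held for the peaks named at Aida, Pisd-ps1, Umod, Tmbim6, Kap, Zic4, Mbd3 and Zbtb4, among others. Of all 1199 peaks, 664 (55.4%) lay over 3 kb from the TSS of every protein-coding transcript. Island shares also differed by gene type, with 34.9% at protein-coding genes and 19.1% at pseudogenes.

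Of 20807 autosomal protein-coding genes, 802 (3.85%) had at least 1 peak at 1 to 3 kb from a TSS of theirs, 260 (1.25%) an upstream and 548 (2.63%) a downstream one. Genes for regulators of development were above this background, the Hox genes by a margin that 1 weak peak decides. Of 118 developmental transcription factor genes outside the Hox clusters, 14 (11.9%, 6.64% to 19.1%) had such a peak, and of 39 Hox genes, 5 (12.8%, 4.30% to 27.4%). Per Mb of sequence at 1 to 3 kb from their own TSSs, the density was 23.8 peaks (13.0 to 39.9) for the first list and 39.0 (12.7 to 91.1) for the Hox genes, against 6.18 (5.76 to 6.62) over all protein-coding genes. With peaks of −log10 p of at least 5 alone, an alternative added for these lists after the data were seen, the Hox share was 4 of 39 (10.3%, 2.87% to 24.2%), an interval that holds the background of 3.35% at that limit. The peak lost was that of Hoxc13. The other developmental genes then gave 13 of 118 (11.02%, 5.998% to 18.1%), still above it. The peaks of the other developmental genes and of the Hox genes were mostly in islands, 12 of 14 and 4 of 5. GC content was not held in a class for the gene lists, and its part in these shares was not tested. These lists and the peaks they meet were chosen with earlier results of these data known.

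The developmental genes were Zic4, Foxc2, Nkx2-3, Pax5, En2, Foxn1, Lhx2, Lhx6, Nkx2-1, Nkx2-9, Nkx3-2, Prrx1, Six3 and Tbx5, and their peaks had −log10 p values of 4.73 to 8.21. Of these 14 peaks, 12 were downstream. The Foxc2 peak (8.11, chr8:121117150-121117918) lay 1363 bp into the gene, wholly in exons and in an island of 2431 bp, with 97 CpGs and 74.1% GC. Foxc2 is a forkhead factor known in fat as well as in lymphatic vessels. Zic4, a zinc finger factor of the cerebellum, had a peak of 8.21 (chr9:91384160-91384551) at 1945 bp. The Nkx2-3 peak (7.21, chr19:43614673-43615124) at 2573 bp held 57 CpGs, with a CpG ratio of 1. Pax5, a B cell factor, had a peak upstream, at 1797 bp (6.95, chr4:44712097-44712471).

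Of the 5 Hox peaks, 4 were in the HoxC cluster, and Hox genes are known to specify position along the body axis. The Hoxc5 peak (10.7, chr15:103011773-103012237) was 1810 bp upstream of a later start of the gene, in an intron of Hoxc5. The Hoxc10 peak (10.1, chr15:102963621-102964172) was 2900 bp upstream of the first start, outside genes. Both were in islands under 500 bp. The Hoxc6 peak (5.19, chr15:102999189-102999662) was in a shore, 1104 bp upstream of a later start, in introns of Hoxc5 and Hoxc6. Hoxc13 carried the weakest of the 5 (4.12). Hoxd3 (8.90, chr2:74746486-74747099) was marked 1070 bp downstream of a later start, wholly in exons, at a CpG ratio of 0.913.

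Genes of DNA methylation and demethylation gave 3 of 27 (11.1%, 2.35% to 29.2%), an interval that holds the background of 3.85%. Dnmt3a, a de novo DNA methyltransferase, had the strongest peak (10.5, chr12:3807989-3808544) 1106 bp downstream of one of its starts, in its first intron and in an island of 2327 bp. Mbd3, a methyl-CpG-binding domain protein, carried a peak of 7.52 (chr10:80392850-80393236) at 2127 bp in the 3′ untranslated region, and its TSS also had a promoter peak. Zbtb4, a zinc finger protein that binds methylated DNA, had one of 5.31 (chr11:69778096-69778581) in a coding exon at 2932 bp. All 3 lay downstream.

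Genes of the adipocyte itself showed no excess at this distance. Of 41 adipogenic transcription factor genes, 2 (4.88%, 0.596% to 16.5%) had a peak. Zfp521, a factor known to oppose fat cell commitment, had one of 9.82 in its first intron at 1640 bp, in an island of 977 bp. The Klf4 peak (3.96, chr4:55530371-55530745) was among the weakest and lay in a coding exon. Of 45 genes of fat synthesis, storage and lipolysis, 2 (4.44%, 0.543% to 15.15%) had a peak. They were Adrb3, the β-adrenergic receptor of fat cells (6.70, chr8:27227098-27227783, 1054 bp downstream), and Fasn, the fatty acid synthase (4.96, chr11:120813662-120814036, 1606 bp downstream), both in coding exons. The nearest TSS was a later start of the gene for Adrb3 and Fasn, and for Zfp521 and Klf4 too. Of 39 genes of insulin signalling only Sos1, a Ras exchange factor, had one (6.90, chr17:80482614-80483060, 2384 bp upstream). None of 24 adipokine genes had a peak here, which allows a share of up to 14.25% by the exact interval.

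Signalling, matrix and proteasome genes gave shares of 2.63% to 9.52%. The Wnt list had 5 of 64 genes (7.81%, 2.59% to 17.3%), with Wnt7b (7.92), Rnf43 (7.28) and the receptor gene Fzd2 (7.21) downstream and the effector gene Tcf7 (5.78) and the ligand gene Wnt6 (5.59) upstream. The BMP and TGF-beta list had 5 of 65 (7.69%, 2.55% to 17.05%), led by Ltbp4 (9.58), which encodes a TGF-beta binding protein, with the ligand genes Bmp2 (6.15) and Inha (5.26) and the antagonist gene Fst (5.59) behind it and the inhibitory Smad6 (3.16) last. Axon guidance genes gave 6 of 70 (8.57%, 3.21% to 17.7%), namely Epha2 (8.503), Unc5a (6.70), Sema5a (6.21), Sema6c (6.04), Sema3f (5.39) and Plxnb2 with 2 peaks (5.74 and 4.60). Collagen genes gave 4 of 42 (9.52%, 2.66% to 22.6%), namely Col26a1 (8.46), Col7a1 with 2 peaks (7.16 and 6.98), Col6a1 (6.21) and Col6a3 (5.78), and none of these 5 peaks was in an island. Proteasome subunits gave 1 of 38 (2.63%, 0.0666% to 13.8%), Psmc2 (9.66). The intervals of all 5 lists hold the background of 3.85%.

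**Figure D5:**
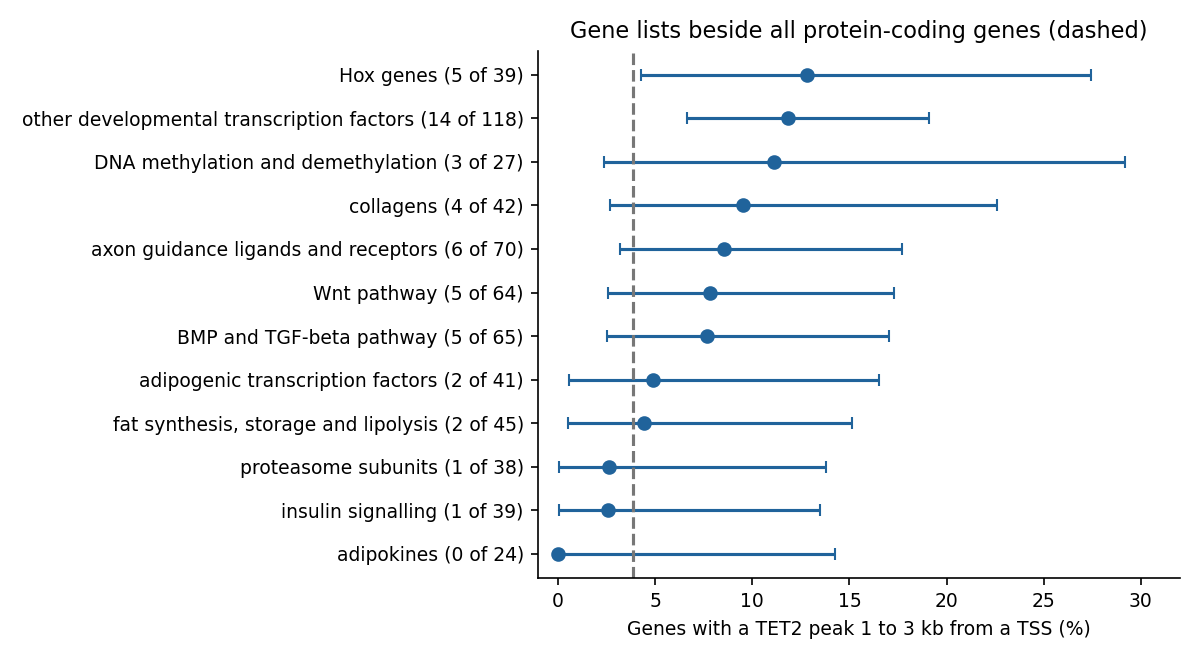
Share of genes with at least 1 TET2 peak at 1 to 3 kb from a TSS in 12 gene lists (points, exact 95% binomial intervals) and in all 20807 autosomal protein-coding genes (dashed line, 3.85%). The intervals of the Hox genes (4.30% to 27.4%) and of the other developmental transcription factors (6.64% to 19.1%) lie above the line, and the other 10 cross it. Without peaks of −log10 p under 5 the Hox interval (2.87% to 24.2%) holds the background too.

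Motif letters were searched on both strands in the 201 bases at each midpoint. They were GGGCGG for SP1, GCCNNNGGC for AP-2, TTGCNNAA for C/EBP, CCCNNGGG for EBF, TGANTCA for AP-1, CACGTG for the E-box, GCGCNTGCG for NRF1, CCGGAAG for ETS, AAGATGGCG for YY1 and TGACGTCA for CRE. A window may hold several of them and matches may overlap. GC-rich letters were the most common. SP1 letters were in 229 of the 1199 peaks (19.1%, 16.9% to 21.4%), against 44.9% within 1 kb, 12.7% over 3 kb and 2.34% of the 1046985 windows that tile the sequence at this distance. AP-2 letters were in 18.2% (16.0% to 20.5%) of the peaks and 3.34% of the windows.

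When GC content was held in a class, some of these differences were smaller. At 65% GC and over, SP1 letters were in 40.5% (34.9% to 46.3%) of the peaks and 42.0% of the windows, and at 55% to 65% in 16.8% (13.9% to 20.04%) and 10.7%. AP-2 letters were in 19.3% (16.2% to 22.7%) of the peaks and 11.9% of the windows at 55% to 65% GC, and in 31.4% (26.2% to 37.0%) and 22.7% at 65% and over. NRF1 letters, 9 bases with several CpGs, were in 2.50% of the peaks and 0.109% of the windows, and at 55% to 65% GC in 2.20% (1.18% to 3.74%) and 0.399%. EBF letters went the other way at 65% GC and over, with 16.1% (12.1% to 20.7%) of the peaks and 20.5% of the windows, a value the interval holds.

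C/EBP letters, those of the C/EBPα partner, were in 54 of the 1199 peaks (4.50%, 3.40% to 5.84%), below the 8.52% of all windows. In every class of GC content the interval of the peaks held the value of the windows. The values were 4.75% (3.18% to 6.79%) of the peaks and 4.16% of the windows for 55% to 65% GC and 2.01% (0.740% to 4.32%) and 1.87% for 65% and over. In the other classes the peaks were lower, with 7.43% (3.77% to 12.9%) and 10.1% under 45% GC and 5.56% (2.57% to 10.3%) and 6.77% at 45% to 55%. Peaks within 1 kb had them in 2.72% of cases, a difference of −1.79 percentage points (−3.17 to −0.657) from the peaks at 1 to 3 kb. Those over 3 kb had them in 5.71%, and the peaks at 1 to 3 kb differed from these by −1.20 points (−2.39 to 0.223). AP-1 letters were in 2.42% (1.63% to 3.46%) of the peaks and 5.94% of the windows. YY1 letters were in 1.25% (0.702% to 2.06%) of the peaks and 0.131% of the windows. Their difference from the 5.97% over 3 kb was −4.72 points (−5.48 to −3.75). At 55% to 65% GC, YY1 letters were in 2.03% (1.055% to 3.53%) of the peaks and 0.433% of the windows. At 65% GC and over the order was the other way, with 0.334% (0.00847% to 1.85%) and 5.14%. E-box letters were in 3.92% of the peaks and 2.27% of the windows. For ETS letters the values were 2.42% and 0.661%, and for CRE letters 0.0834% and 0.107%. For none of the 10 motifs did the interval of the difference between downstream and upstream peaks leave out 0. These shares count letters, and no binding of the named factors was measured.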

How the data were processed

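ChIP-seq for TET2 was done on 1 culture-derived ChIP library and 1 Input library from ASCs differentiated in vitro. Per the labels and methods, the authors removed poor sequence with NGS QC Toolkit, aligned reads with Bowtie and called peaks with MACS2 (version 2.1.0 in the submitters' processing notes). The deposited peak list gives each peak's position and a −log10 p by MACS2. The methods name a p setting equal to a −log10 p of 5, yet 181 of the 1199 peaks lie below it and were kept. The labels name the build mm10 (GRCm38) and the methods another build. The peaks were read on GRCm38, where 2 peaks contained an unknown base. No file of the Input library was used here, and read depth is unknown.

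TSSs and gene context came from GENCODE M21 and sequence from RefSeq GRCm38. Bases whose nearest TSS was 1 to 3 kb away, and windows of 201 bp tiling them, gave the backgrounds. Repeats are the lower-case bases of that assembly. Shares carry exact (Clopper-Pearson) 95% binomial intervals, densities exact Poisson intervals and differences Newcombe intervals. Analyses used Python 3.11.15, scipy 1.17.1 and statsmodels 0.14.6, and the scripts were tested on simulated data. No count model was fitted.

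The members and the 12 gene lists were chosen with earlier results of these data known. Genes were named by rule: on each side the 6 largest −log10 p under 50% repeat-masked and the 3 largest of any, every peak of the adipogenic, fat, adipokine, insulin and DNA methylation lists, and up to 4 of each other list. Other genes of these lists and the kidney genes were named after their values were seen. A few items that the rule names are not reported here.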

Additional observations from a re-analysis of the deposited data

How the results depend on the processing

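Of 43 values under 11 alternatives, 21 stayed near the reported value and 22 moved away from it. A share counted as near when it lay within the interval of the reported share. The number of peaks was judged by its ratio to 1199 instead, and 855 with RefSeq TSSs counted as near. Direction was not assessed. Among those 21, the Hox share went from 12.8% to 10.3% at a −log10 p of at least 5, where its interval (2.87% to 24.2%) came to hold the background. The number of peaks, 1199, was 683 with TSSs of protein-coding transcripts and 727 with a limit of 2 kb. The upstream share, 37.9%, was 29.0% with protein-coding TSSs, 33.8% with RefSeq TSSs and 35.1% for peaks under 50% repeat-masked. The island share, 31.4%, was 45.5%, 39.4% and 35.5% under the same 3 settings, 27.3% with peaks placed by their nearest base, 34.3% within 2 kb and 15.5% with islands of at least 500 bases. The share with a promoter peak, 2.59%, was 5.12% with protein-coding TSSs and 1.75% with a promoter limit of 500 bp. The share of protein-coding genes, 3.85%, was 3.35% at a −log10 p of at least 5, 3.21% with protein-coding TSSs, 2.88% with RefSeq TSSs, 3.47% by nearest base, 3.475% without repeat-rich peaks and 2.43% within 2 kb. The C/EBP share, 4.50%, was 2.002% with 50 bp each side, 10.8% with 250 bp and 19.35% with the letters TTNCNNAA. Fewer peaks or bases enter several of these settings by construction; otherwise the cause was not tested.

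No paired analysis was possible because each group holds 1 library. Without replicates and read totals, no value here shows how far another culture would differ, and an absent peak does not show that TET2 is absent. The peak list is the only readout, so strength between peaks is known only as −log10 p.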

Other observations

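Chromosomes differed in how many of these peaks they held. Density at 1 to 3 kb from a TSS was highest on chromosome 15, with 72 peaks at 8.49 per Mb (exact 95% Poisson interval 6.64 to 10.7), and lowest on chromosome 13, with 31 peaks at 2.80 per Mb (1.90 to 3.98). Chromosome 11, where the Eif4enif1, Pisd-ps1, Fzd2 and Fasn peaks lie, had 98 peaks at 7.10 per Mb (5.77 to 8.65). Gene content and GC content also differ between chromosomes, and their part in this order was not tested.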
